A study of Mus musculus with 6 samples.

Results

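Syndecans and glypicans are the main families of cell-surface heparan sulfate proteoglycans, and all 10 mouse genes of both families were measured here, among 909 genes named on the array. They are the 4 syndecans (Sdc1, Sdc2, Sdc3 and Sdc4) and the 6 glypicans (Gpc1, Gpc2, Gpc3, Gpc4, Gpc5 and Gpc6), taken as the probe sets whose RefSeq accession belongs to a gene of that name. Each gene had 1 probe set. RNA came from MLE-15, an established mouse lung epithelial line that carries the SV40 large T antigen, driven in the animals it was made from by a surfactant protein promoter, so every array of both groups carries that transgene. The 3 control arrays were of untreated cells, and the 3 PMA arrays of cells given 10 nM phorbol 12-myristate 13-acetate, which activates protein kinase C, for 24 h; dose and time come from the series design. The study asked whether PMA induces sialyltransferases, sulfotransferases and mucins. The labels do not tell whether replicates were separate cultures, so p-values cover the spread between these arrays, which may be technical.

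A syndecan is a transmembrane core protein, and a glypican is held to the outer membrane by a glycosylphosphatidylinositol anchor. Both carry heparan sulfate chains, which bind growth factors, morphogens, chemokines and matrix proteins and present them to their receptors. Syndecan ectodomains can be shed by proteases, and phorbol esters are a classical trigger of that shedding in cultured cells, a step at the protein level that RNA arrays do not record. In lung epithelium Sdc1 and Sdc4 are the best known of the syndecans. Glypicans modulate Wnt, Hedgehog, BMP and FGF signals.

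Values are log2 RMA values, and a difference of 1 on this scale is a doubling of the measured signal. Array medians lay between 5.64 and 5.71. Arrays carry the replicate numbers 1, 2 and 3 in both groups, and over all 1246 probe sets the number 1 pair stood apart from the other 4 arrays. Every comparison of the 10 genes is therefore given within numbers, and between number 1 and numbers 2 and 3. That last comparison was chosen with these results known. Of the lung epithelial markers listed, 2 of 13 were measured, the surfactant protein genes Sftpa1 at a mean of 3.86 in number 1 and 3.34 in numbers 2 and 3, and Sftpd at 5.49 and 5.36. The mean of Sftpa1 lay under the arrays' lower quartiles (4.32 to 4.43), so the labelled lung epithelial type rests on few markers here. The other markers on that list were not analysed here.

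**Figure D1:**
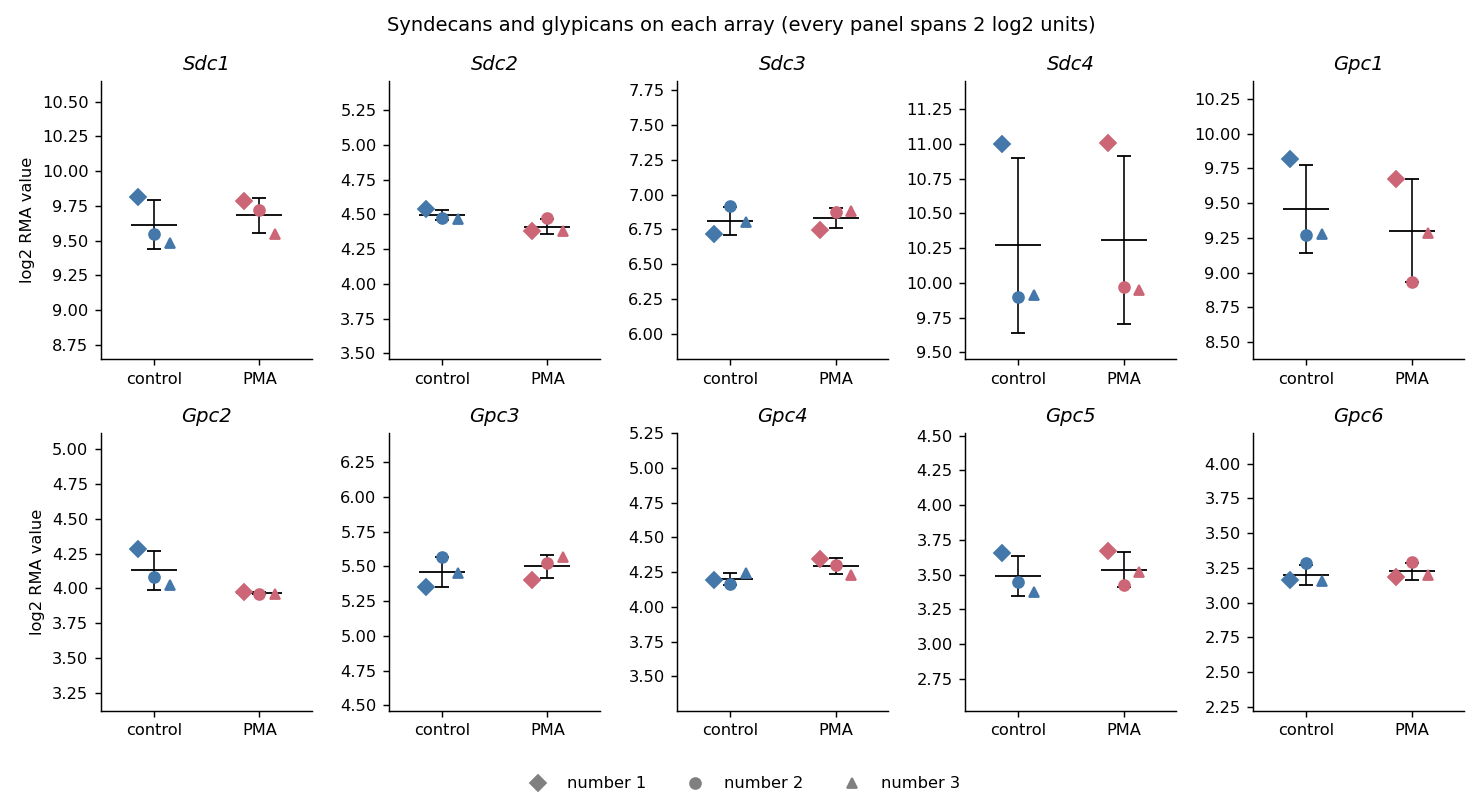
Log2 RMA value of each syndecan and glypican on each of the 6 arrays, with control arrays in blue and PMA arrays in red, the replicate number as the marker shape, and the mean ± SD of 3 arrays as a bar. In Sdc4 and Gpc1 the number 1 array lies above both others in each group, and by smaller gaps also in Sdc1, Gpc2 and Gpc5. Control and PMA arrays overlap in every gene but Gpc2.

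Sdc4, the widely expressed syndecan of focal adhesions whose cytoplasmic tail binds protein kinase C alpha, gave the largest difference of the 10 genes, and it followed the replicate number and not PMA. Control arrays 1, 2 and 3 read 11.00, 9.90 and 9.91, and PMA arrays 1, 2 and 3 read 11.00, 9.97 and 9.95. Both number 1 arrays were high, the other 4 lay close together, and the nearest values of the 2 sets were 1.03 apart. Number 1 averaged 11.00 and numbers 2 and 3 averaged 9.93 ± 0.034 (SD, n = 4), a difference of 1.07 log2 units (SE 0.065) or 2.10-fold (95% interval 1.90 to 2.32). By limma with Benjamini-Hochberg adjustment over all probe sets the adjusted p was 3.04e-07. Number 1 is a single number whose 2 arrays were counted as separate, so interval and p cover spread between arrays and not between numbers. The same holds for every number 1 comparison below. The difference was 1.09 in control arrays and 1.05 in PMA arrays, and leaving out any 1 array kept it between 1.05 and 1.09. It exceeded in size that of 91.4% of all probe sets, and 115 probe sets (9.23%) differed by over 1 log2 unit.

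The PMA difference of Sdc4 was 0.040 log2 units (SE 0.43), with 0.0067, 0.072 and 0.040 in numbers 1, 2 and 3. The groups overlapped fully, with control means of 10.27 ± 0.63 and PMA means of 10.31 ± 0.60 (SD, n = 3). Since the number sets most of that SD, the fit with the replicate number as a block gave a narrower 95% interval, -0.11 to 0.19. Numbers 2 and 3 differed by 0.0042 in Sdc4.

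In number 1, Sdc4 was higher by about a doubling, Sdc1 was higher by less, and Sdc3 was lower without passing the test. The Sdc1 call was lost under several alternatives, and differences between these 3 genes were not tested. The promoters of these 3 syndecans are shown. Each is the 250 bases before the RefSeq start in GRCm38.p6, 5′ to 3′ on the gene's strand. Capitals mark matches on either strand to a GC box, a TATA element, an AP-1 site (the element through which phorbol esters classically act) or the NF-κB consensus.
Sdc4 promoter, chr2:164443189-164443438, minus strand: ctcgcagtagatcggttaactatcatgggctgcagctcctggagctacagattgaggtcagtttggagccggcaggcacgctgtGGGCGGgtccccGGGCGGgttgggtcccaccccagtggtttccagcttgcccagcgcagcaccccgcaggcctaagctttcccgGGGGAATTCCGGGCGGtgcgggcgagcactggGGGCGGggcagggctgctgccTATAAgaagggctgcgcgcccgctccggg
Sdc1 promoter, chr12:8771146-8771395, plus strand: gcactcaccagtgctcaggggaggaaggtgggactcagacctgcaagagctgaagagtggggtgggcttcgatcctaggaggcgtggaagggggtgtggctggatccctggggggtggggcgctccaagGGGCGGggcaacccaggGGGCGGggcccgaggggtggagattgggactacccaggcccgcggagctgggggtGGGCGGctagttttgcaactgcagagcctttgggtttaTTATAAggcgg
Sdc3 promoter, chr4:130792287-130792536, plus strand: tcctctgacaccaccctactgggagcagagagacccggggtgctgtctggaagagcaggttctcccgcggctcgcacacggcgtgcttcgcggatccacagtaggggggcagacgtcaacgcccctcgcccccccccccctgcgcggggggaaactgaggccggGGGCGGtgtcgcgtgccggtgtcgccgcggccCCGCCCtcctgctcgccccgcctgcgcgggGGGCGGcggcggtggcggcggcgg

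The RefSeq promoter table held 7 of the 10 genes, without Sdc2, Gpc1 and Gpc6. The Sdc4 window held 4 GC boxes, 1 TATA element starting at -29 and 1 NF-κB match starting at -82, which is followed directly by the GC box at -72. The Sdc1 window held 3 GC boxes and, at its downstream end, a TATA element (TATAA) at -10 overlapping another on the opposite strand at -11. The Sdc3 window held 3 GC boxes and neither a TATA element nor an NF-κB match. GC boxes (GGGCGG on either strand) occurred in 7 of the 7 windows, against 32.7% of 32851 windows of that length in the table. The 7 windows held from 51.2% (Gpc5) to 76.4% (Sdc3) G and C, and the comparison was not matched for that content. The NF-κB match occurred in 1 of 7, against 3.90% of windows, and the TATA element in 3 of 7, against 22.8%. The AP-1 letters, TGANTCA, occurred in 0 of 7, against 6.75%. All searches covered both strands. These are matches of letters, and binding was not measured.

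Sdc1, the main syndecan of epithelial cells, also lay higher in number 1, by far less than Sdc4. Control arrays 1 to 3 read 9.81, 9.55 and 9.48, and PMA arrays 1 to 3 read 9.79, 9.72 and 9.54. Both number 1 arrays were above the other 4, but PMA 2 came within 0.070 of them. The difference was 0.23 log2 units (SE 0.077), or 1.17-fold, with an adjusted p of 0.0360 by limma. The call was lost after centring each array on its median (0.19, adjusted p = 0.0859). It was also lost without control 1 (0.16, adjusted p = 0.311), control 2 (0.23, adjusted p = 0.0791), control 3 (0.20, adjusted p = 0.0980), PMA 1 (0.30, adjusted p = 0.0648) or PMA 3 (0.20, adjusted p = 0.0983). The PMA difference of Sdc1 was 0.069 (SE 0.12), at -0.026, 0.17 and 0.062 in the 3 numbers, with an adjusted p of 0.999. With 1 array left out it ranged from 0.0032 (without control 3) to 0.17 (without control 1). Within an array, Sdc4 minus Sdc1 was 1.18 and 1.22 in the number 1 arrays and 0.25 to 0.43 in the others, so the signals of both syndecans changed unequally between numbers.

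Sdc3, a syndecan known mainly from neurons and muscle, lay slightly lower in number 1. Control arrays 1 to 3 read 6.72, 6.92 and 6.80, and PMA arrays 1 to 3 read 6.75, 6.87 and 6.88. The number 1 arrays were below the other 4 by at least 0.055. The difference of -0.14 log2 units (SE 0.068) did not pass (adjusted p = 0.141), and the PMA difference was 0.021 (SE 0.080).

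Sdc2, the syndecan typical of mesenchymal cells, read 4.54, 4.47 and 4.47 in control arrays 1 to 3 and 4.38, 4.47 and 4.38 in PMA arrays 1 to 3. Its values lay near the arrays' lower quartiles. The PMA difference was -0.082 log2 units (SE 0.060), at -0.15, -0.0029 and -0.089 in the 3 numbers, and it did not pass (adjusted p = 0.999). PMA 2 overlapped the control arrays. Between number 1 and the others Sdc2 differed by 0.011 (SE 0.069), a sign that turned after median centring.

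Gpc1, the most broadly expressed glypican and a co-receptor for FGF2 and VEGF, was the second of the 10 genes to differ clearly with the number. Control arrays 1 to 3 read 9.82, 9.27 and 9.28, and PMA arrays 1 to 3 read 9.68, 8.94 and 9.29. Both number 1 arrays were high, PMA 2 was the lowest, and the 2 sets were 0.39 apart at their nearest. Number 1 averaged 9.75 and the others 9.19 ± 0.17 (SD, n = 4), a difference of 0.56 log2 units (SE 0.094) or 1.47-fold (95% interval 1.27 to 1.70). The adjusted p was 0.000645 by limma. The difference was 0.55 in control arrays, 0.57 in PMA arrays and 0.52 after median centring, and the call held when any 1 array was left out (0.48 to 0.63).

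With PMA, Gpc1 differed by -0.16 log2 units (SE 0.24; adjusted p = 0.999), and the numbers gave -0.14, -0.34 and 0.0083. The groups overlapped. The difference was 0.024 without PMA 2 and 0.024 without control 1, and in both cases the remaining arrays are unbalanced over the numbers. With number 1 left out of both groups it was -0.16. With the replicate block the 95% interval was -0.34 to 0.023, with an adjusted p of 0.992.

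Gpc2, a glypican of the developing nervous system, was the only one of the 10 genes whose control and PMA arrays did not overlap. Control arrays 1 to 3 read 4.28, 4.08 and 4.02, and PMA arrays 1 to 3 read 3.97, 3.96 and 3.96. Every PMA array was below every control array, and control 1 stood highest. The difference was -0.16 log2 units (SE 0.085), at -0.31, -0.12 and -0.060 in the 3 numbers, and it did not pass (adjusted p = 0.999; with the replicate block unadjusted p = 0.0514 and adjusted p = 0.992). With 1 term for number 1, a fit added after seeing the data, limma gave an unadjusted p of 0.0404 and an adjusted p of 0.995, and 3.53% of all probe sets had an unadjusted p under 0.05. The difference was -0.087 without control 1 and -0.092 with number 1 left out of both groups. Groups that did not overlap were found in 3.37% of all probe sets, in either direction. Its 6 values lay below the arrays' lower quartiles, and number 1 differed from the others by 0.12 (SE 0.074; adjusted p = 0.219). That difference was 0.23 in control arrays and 0.013 in PMA arrays, and it had the same extremes with 1 array left out, 0.013 without control 1 and 0.23 without PMA 1.

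Gpc3, which restrains Hedgehog signalling in the embryo and is mutated in an overgrowth syndrome, and Gpc4 lie next to each other on chromosome X, with 0 protein-coding genes between them in the RefSeq table. Gpc3 read 5.35, 5.57 and 5.45 in control arrays 1 to 3 and 5.40, 5.53 and 5.57 in PMA arrays 1 to 3. Its number 1 arrays were the lowest in each group, and the difference of -0.15 log2 units (SE 0.069) had an adjusted p of 0.109, or 0.0486 after median centring (-0.19). The PMA difference of Gpc3 was 0.040 log2 units (SE 0.085). The Gpc3 probe set carries the suffix s, so it can bind several transcripts.

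Gpc4 was not tested against its neighbour. It read 4.20, 4.16 and 4.25 in control arrays 1 to 3 and 4.35, 4.30 and 4.23 in PMA arrays 1 to 3, all below the lower quartiles of their arrays. The PMA difference was 0.093 log2 units (SE 0.062; adjusted p = 0.999), with PMA 3 inside the control range. Number 1 differed from the others by 0.035 (SE 0.069), and the sign turned after median centring.

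Gpc5 and Gpc6 form the other neighbouring pair, on chromosome 14, again with 0 protein-coding genes between them, and both gave low signals on all 6 arrays. Gpc5 read 3.65, 3.45 and 3.37 in control arrays 1 to 3 and 3.67, 3.42 and 3.52 in PMA arrays 1 to 3. Both number 1 arrays were above the other 4, by at least 0.14. The difference was 0.22 log2 units (SE 0.069) with an adjusted p of 0.0239. The call was lost after median centring (0.18, adjusted p = 0.0634) and without control 1 (0.20, adjusted p = 0.159), control 3 (0.20, adjusted p = 0.0780) or PMA 1 (0.24, adjusted p = 0.0904). Gpc6 read 3.16, 3.28 and 3.15 in control arrays 1 to 3 and 3.18, 3.29 and 3.20 in PMA arrays 1 to 3. It differed by -0.060 (SE 0.072) with the number and also carries the suffix s. The PMA differences were 0.046 (SE 0.11) in Gpc5 and 0.024 (SE 0.069) in Gpc6.

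Over the 10 genes, PMA called 0 by limma, and so it did over all 1246 probe sets (0%). An unadjusted p under 0.05 was reached by 0 of the 10 and by 4 probe sets in all (0.321%). The replicate block again gave 0 calls among the 10, and 0 of them had an unadjusted p under 0.05, against 3.37% of all probe sets. With 1 term for number 1 there were 0 calls (0% of all probe sets), and 1 of the 10, Gpc2, had an unadjusted p under 0.05. PMA means were above control means in 7 of the 10 and below in 3, and the median of the 10 differences was 0.032 log2 units, against 0.0033 over all probe sets. In 4 of the 10 all 3 numbers gave the same sign (Sdc2, Sdc4, Gpc2 and Gpc6), against 23.1% of all probe sets. The blocked 95% intervals bounded the ratio of PMA to control signal between 0.791 (Gpc1) and 1.19 (Gpc4) across the 10. A change of 1.5-fold thus lay outside all of these blocked intervals for the measured signal. Without the block, the intervals of Sdc4 (-1.05 to 1.13 log2 units) and Gpc1 (-0.77 to 0.46) were wider and included such a change. Signal over background is unknown, and in a dim probe set such as those of Gpc2, Gpc4, Gpc5 and Gpc6 the signal can understate a change of the transcript.

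**Figure D2:**
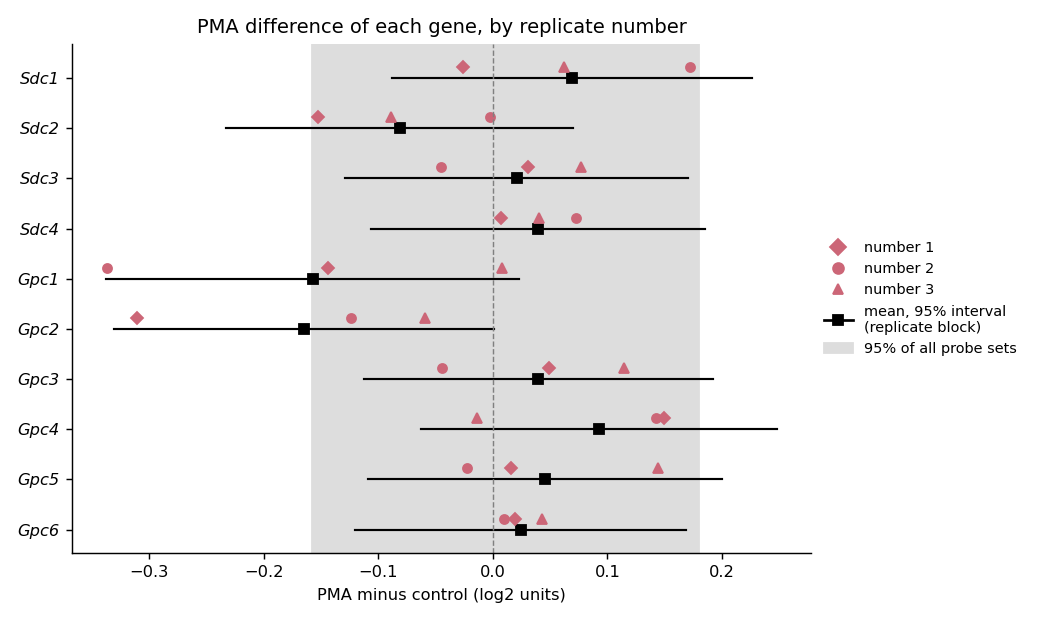
PMA minus control in log2 units for each gene. Red markers are the differences within numbers 1, 2 and 3, squares the mean with the 95% interval of the replicate block fit, and the grey band holds 95% of the mean differences of all probe sets (-0.16 to 0.18). All intervals include 0, and only Gpc2 has a mean outside the band.

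Between number 1 and numbers 2 and 3, 4 of the 10 genes were called higher and 0 lower by limma, against 27.5% of all probe sets called higher and 14.1% lower (41.7% in all), so the share called was close to that over the array. They were Sdc4, Gpc1, Sdc1 and Gpc5. Of these, Sdc4 and Gpc1 were called under every alternative tried, while Sdc1 and Gpc5 were not. The number 1 arrays lay wholly above or below the other 4 in 6 of the 10, against 55.9% of all probe sets. After median centring the 10 gave 2 higher (Sdc4 and Gpc1) and 1 lower (Gpc3). The median difference was 0.079 over the 10 genes and 0.079 over all probe sets. Numbers 2 and 3 differed from each other in 0 of the 10, and in 0% of all probe sets, by limma; at an unadjusted p under 0.05 the counts were 0 of 10 and 4.90%. The largest of these differences was in Gpc1, number 2 minus number 3, at -0.18 (SE 0.097). Whether the PMA difference depended on number 1 was also tested, and 0 of the 10 passed by limma, against 0.0803% of all probe sets (unadjusted, 0 of 10 and 5.62%). The largest such difference was in Gpc2, at -0.22 (SE 0.13; adjusted p = 0.770).

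Some markers of other cell types also differed between number 1 and the others. The 3 measured of 7 endothelial markers, Pecam1, Sele and Vcam1, were all called lower in number 1, at -1.37, -1.13 and -1.31. Their summed linear signal, 435 to 506 there and 934 to 1396 in numbers 2 and 3, is mostly signal of Vcam1. Of the 4 measured of 10 fibroblast and smooth muscle markers, Dcn was called lower at -2.31 and Pdgfrb higher at 0.78, while Pdgfra at 0.20 and Lum at 0.074 did not pass. Their sum, 259 to 365 in number 1 and 860 to 1585 in the others, is mostly signal of Dcn. Of the 5 measured of 12 leukocyte markers only the mannose receptor Mrc1 was called, at -2.74, and Siglech, Siglec1, Cd22 and Cd33 did not pass; the sum was 160 to 191 and 346 to 388. The part of these markers in the differences of Sdc4 and Gpc1 was not tested, and RMA values hold no 0 by which a marker could be called absent. In bulk RNA, fewer cells of a type and less RNA per cell cannot be told apart.

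**Figure D3:**
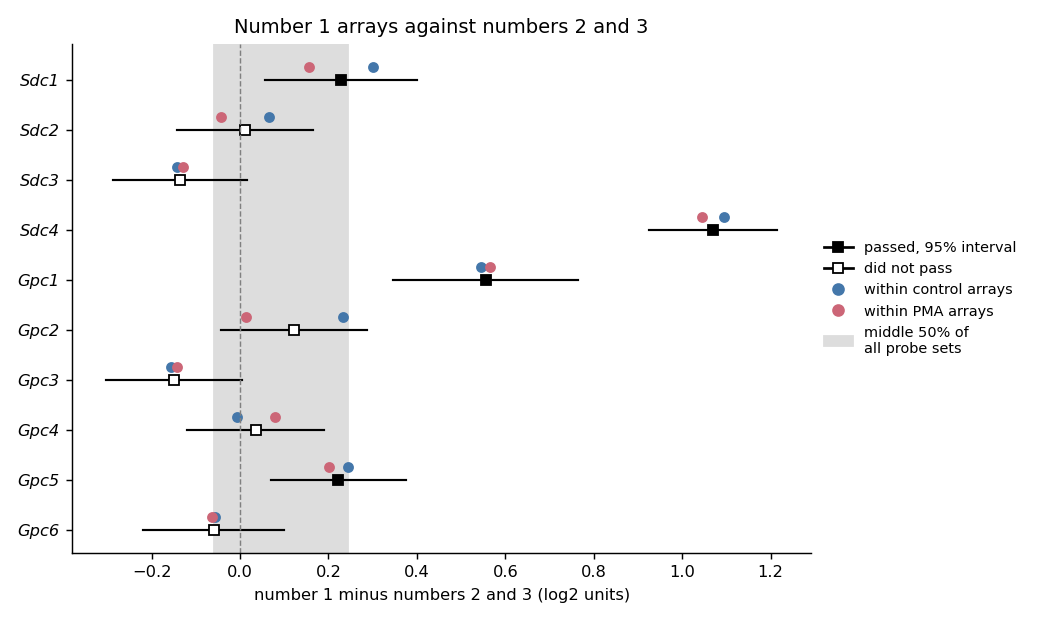
Number 1 minus numbers 2 and 3 in log2 units. Squares show the limma estimate with its 95% interval, filled where the adjusted p was under 0.05, blue and red points show control and PMA arrays alone, and the grey band holds the middle 50% of all probe sets. Sdc4 at 1.07 and Gpc1 at 0.56 lie above the band in both groups, and Sdc3 at -0.14 and Gpc3 at -0.15 below it in both without passing the test; Sdc1 and Gpc5 lose their call, Gpc3 gains one and Sdc2 and Gpc4 turn sign when arrays are centred on their medians.

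Genes with the profiles most like those of the 3 most variable members were sought over the 6 arrays, as the smallest root mean square difference between mean-centred profiles among 899 other named genes. For Sdc4 they were Agrn, the heparan sulfate proteoglycan agrin of basement membranes, at 0.047 log2 units, Chst14, a dermatan 4-O-sulfotransferase, at 0.057, and Dhrs1, a short-chain dehydrogenase, at 0.065. Agrn read 10.08, 8.98 and 9.07 in control arrays 1 to 3 and 10.21, 9.15 and 9.06 in PMA arrays 1 to 3, a profile with the same 2 high arrays as Sdc4. In all, 8 genes lay within 0.1 of Sdc4 and 7 within 0.1 of Gpc1, against 152 within 0.1 of Sdc1, whose profile is flatter.

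For Gpc1 the closest were Cd74, the invariant chain and a part-time chondroitin sulfate proteoglycan, at 0.042, Man2a2, a Golgi mannosidase of N-glycan trimming, at 0.055, and Galk1, galactokinase, at 0.063. Each shared the low value of PMA 2 with Gpc1, with Cd74 at 6.54 there against at least 6.93 in the other arrays of numbers 2 and 3. For Sdc1 the closest were Reg3d at 0.029, Psap, prosaposin, at 0.031, and Adgre4 at 0.034. The arrays are shared by all genes, so likeness over 6 of them is a description of these profiles only.

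**Figure D4:**
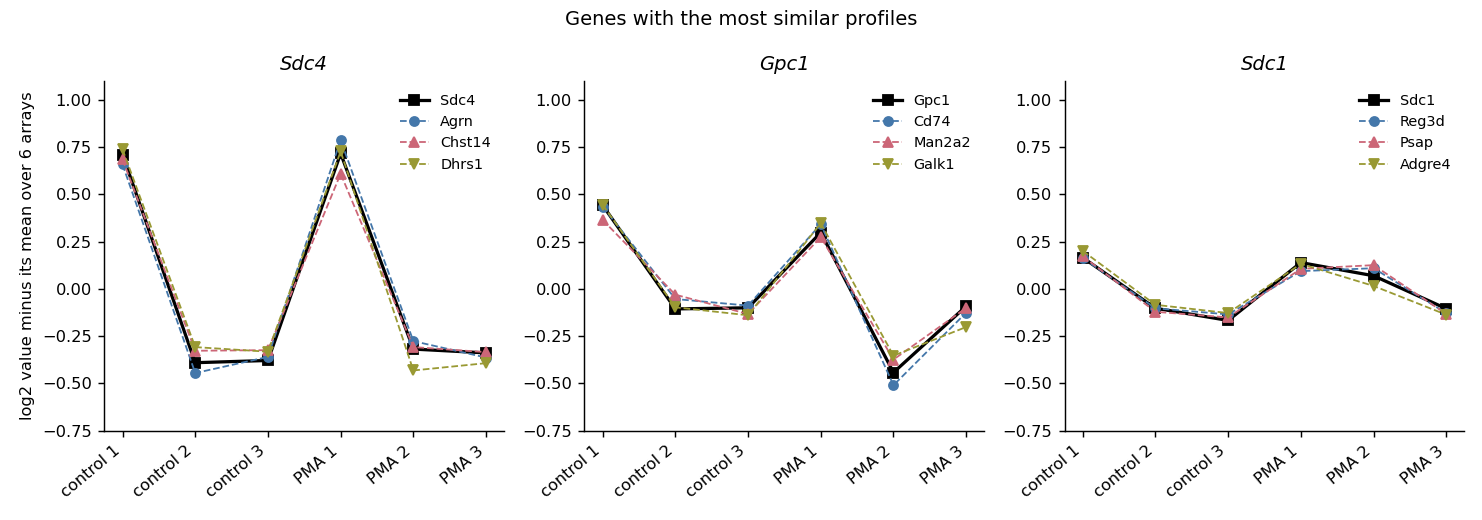
Log2 value minus its own mean over the 6 arrays, for Sdc4, Gpc1 and Sdc1 (black) and the 3 other genes with the closest profile (coloured). Sdc4 and its 3 genes are high on both number 1 arrays, and Gpc1 and its 3 genes share a low value on PMA 2.

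The enzymes that build and sulfate heparan sulfate were measured beside their core proteins. None of the genes in the lists that follow was called for PMA by limma (0 of 89 genes counted once). An unadjusted p under 0.05 was reached by 0 of the 89, and by 4 with the replicate block, where 3.37% of all probe sets reached it. These 4 were B3gat2, Cd44, Tgfbr3 and Fgf2. By limma with the block, Tgfbr3 had a PMA difference of 0.19 (unadjusted p = 0.0163) and Fgf2 of -0.19 (unadjusted p = 0.0312). As before, the SE beside a PMA difference includes the spread between numbers, so the unadjusted p with the block is also given. Of the 12 measured enzymes of the linker and chain, 4 were higher and 1 lower in number 1. The chain polymerase Ext1 led at 2.01 log2 units (SE 0.066), followed by Extl3 at 0.66 and the polymerase Ext2 at 0.63. Ext1 read 9.29 and 9.28 in the number 1 arrays and 7.23 to 7.31 in the others. The linker glucuronosyltransferase B3gat2 had the largest PMA difference of this list, 0.19 (SE 0.094), with an unadjusted p of 0.0371 by limma with the block.

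Of the 14 measured heparan sulfate sulfotransferases 5 were higher and 2 lower in number 1. The N-deacetylase and N-sulfotransferase Ndst1 was higher by 0.98 and the 6-O-sulfotransferase Hs6st1 by 0.81. The 3-O-sulfotransferase Hs3st1 was at -1.11 in number 1 and had the list's largest PMA difference, -0.16 (SE 0.46). Its unadjusted p by limma with the block was 0.160. Of 15 listed genes for editing, cleavage and shedding only 4 were measured. Among them heparanase, Hpse, which cuts the chains, was at -0.88 in number 1, and the 6-O-endosulfatase Sulf2 was higher by 0.34. Sulf2 also had the largest PMA difference of that list, -0.087 (SE 0.15), with an unadjusted p of 0.217 by limma with the block. The shedding proteases and the cytoplasmic partners on these lists were not analysed here.

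Of the 30 measured ligands that bind heparan sulfate, 7 were higher and 9 lower in number 1. Wnt5a, Ccl20 and Cxcl2 had the largest differences, at -3.20, -3.09 and -3.06. The chemokine Cxcl1 had the largest PMA difference of the ligands, 0.21 (SE 0.48), with an unadjusted p of 0.124 by limma with the block. Cxcl1 was at -1.13 in number 1. Of the 17 receptors 8 were higher and 2 lower, with the Wnt receptors Fzd5 at -2.08, Fzd2 at 1.37 and Fzd7 at 1.29. Tgfbr1 had the largest PMA difference of the receptors, 0.19 (SE 0.11), with an unadjusted p of 0.0814 by limma with the block. List medians of the PMA difference ran from -0.032 (editing, cleavage and shedding) to 0.084 log2 units (receptors), against 0.0033 over all probe sets.

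Of the 8 other heparan sulfate proteoglycans 4 were higher and 0 lower in number 1: the co-receptor betaglycan, Tgfbr3, at 2.98, collagen XVIII, Col18a1, at 2.52, Agrn at 1.08 (SE 0.069) and Spock1 at 0.19. The Sdc4 difference of 1.07 was thus close to that of Agrn and smaller than those of Tgfbr3 and Col18a1. The hyaluronan receptor Cd44 had the largest PMA difference of this list and of all 89 genes, 0.23 (SE 0.12); by limma its adjusted p was 0.999, and its unadjusted p was 0.0432 with the replicate block. Of the 4 chondroitin sulfate cell-surface proteoglycans 2 were higher, Cspg4 at 2.90 and Cd74 at 0.58. Cd74 had their largest PMA difference, -0.20 (SE 0.26), with an unadjusted p of 0.0569 by limma with the block. Over the 7 lists, 31 of the 89 genes were called higher and 15 lower (51.7%), against 45.0% of all 909 named genes. After median centring the counts were 27 higher and 16 lower, with Hs2st1, Fgfr2, Bmpr1a and Spock1 no longer called and Spock2 called lower, and 0 of the called genes turned sign.

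**Figure D5:**
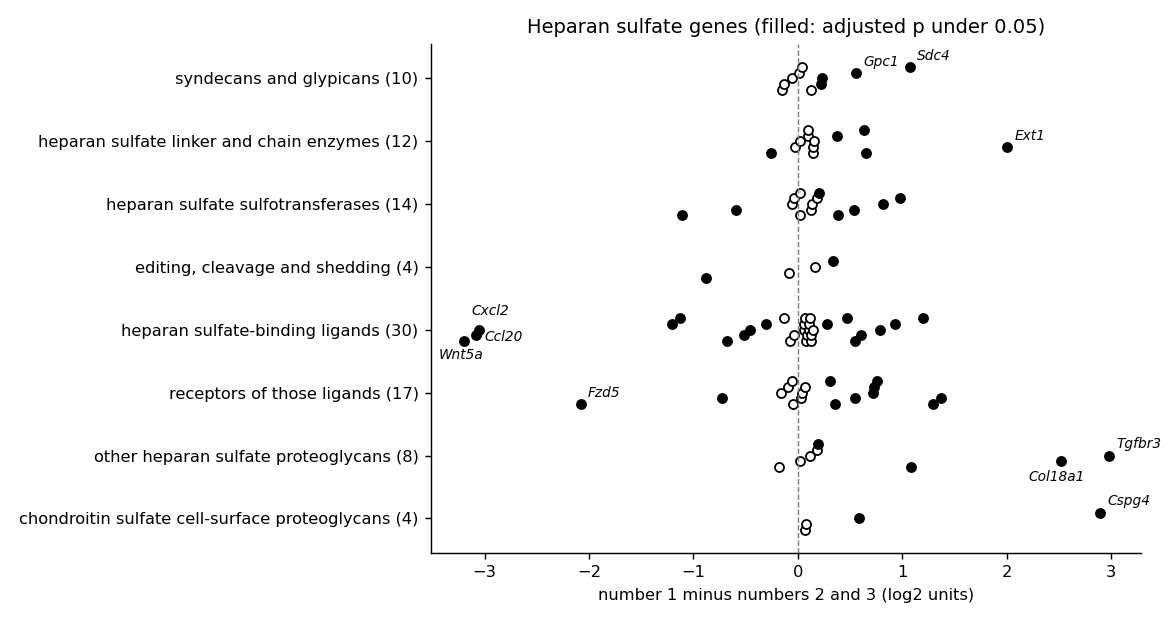
Number 1 minus numbers 2 and 3, in log2 units, for the measured genes of each list, with their number in parentheses and filled points for an adjusted p under 0.05 by limma in the deposited values. Sdc4 at 1.07 lies within the range of the other heparan sulfate proteoglycans, which reach 2.98 in Tgfbr3.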

How the data were processed

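RNA from 6 samples of MLE-15 cells was measured on Affymetrix arrays. The authors deposited 1 table of values made with RMA, per the submitters' processing notes, and the range of the deposited values is that of log2 values. RMA corrects background, normalizes quantiles between arrays and gives 1 value per probe set, which hides a shift shared by all transcripts. The RMA version, array name and annotation were not given in the sources used here.

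Of 1246 probe sets, 963 were named by the RefSeq accession in their identifier, matched without version to RefSeq genes of GRCm38.p6. A gene was represented by its probe set of highest mean. Tests used lmFit and eBayes of limma 3.58.1 (R 4.3.3) on the deposited values, with Benjamini-Hochberg adjustment over all probe sets, a threshold of 0.05 and moderated SE. Number 1 was set against numbers 2 and 3 with PMA as a term and each array counted as separate. The procedure was tested on simulated data with independent noise between arrays. In the simulated PMA comparison number 1 had no shift of its own, so that test does not cover such a shift.

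Deviations from group means correlated between same-numbered arrays at 0.956, 0.815 and 0.912 across probe sets, each over 0.1, so the number was also fitted as a block. A shift of number 1 moves each group mean and so enters the deviations of numbers 2 and 3. Their correlations therefore do not show that arrays of number 2, or of number 3, belong together. The difference of number 2 minus number 3 in control arrays correlated with that in PMA arrays at 0.041, which is under 0.1. The labels do not say what a number stands for. In the sample titles, the names of numbers 2 and 3 end in the letters A and B, and those of number 1 carry no such letter.

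Members and lists were chosen with earlier results of these data known. Named were all 10 members, the 3 most alike genes of the 3 most variable members, and in each list up to 3 genes of largest number 1 difference and 1 of largest PMA difference. Other genes were named to complete a count, after their values were seen. Alternatives left out arrays, centred arrays, dropped dim probe sets or changed the terms of the fit. The number of arrays limits the precision.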

Additional observations from a re-analysis of the deposited data

Results flagged for a closer look

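On the 4 arrays of numbers 2 and 3, which mix both treatments and are no group of the study, 2 of the 10 genes had 1 array far from the other 3 arrays by Dixon's ratio (gap over range), past its 95% critical value. Gpc1 had a ratio of 0.960, with PMA 2 at 8.94 and the others at 9.27 to 9.29. Sdc2 had a ratio of 0.950, with PMA 3 at 4.38 and the others at 4.47, a gap that is small on the log2 scale. Chance alone flags about 1 in 20 such sets. The ratio was taken for the 10 genes only, so the share flagged over all probe sets is not known. Groups of 3 arrays were not tested this way.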

How the results depend on the processing

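Over all probe sets limma called 0 for PMA in every fit tried, which were the replicate block, number 1 left out, 1 term for number 1 (chosen after seeing the data), median centring, dim probe sets left out and each array left out (0 to 0). The block changed no call of the 10 genes. For number 1 against the others the count was 519, with 518 under the replicate block, 431 to 530 under the other alternatives and 403 to 543 with 1 array left out. Centring on the medians gave 488, with 61.1% of calls higher against 66.1%. Number 2 against number 3 called 0 to 1 with 1 array left out (1 without PMA 3), and the dependence of the PMA difference on number 1 called 1, and 2 to 18 with 1 array left out. Sdc4 and Gpc1 kept their number 1 calls throughout. The number 1 difference of Sdc2 was -0.043 in PMA arrays only and -0.029 after centring, and that of Gpc4 was -0.0075 in control arrays only and -0.0043 after centring. With 1 array left out it ranged from -0.043 to 0.065 for Sdc2 and from -0.0075 to 0.078 for Gpc4. PMA differences that turned sign with 1 array left out ranged from -0.027 to 0.073 (Sdc3), -0.31 to 0.40 (Sdc4), -0.35 to 0.024 (Gpc1), -0.013 to 0.095 (Gpc3), -0.021 to 0.13 (Gpc5) and -0.011 to 0.066 (Gpc6), since leaving out 1 array unbalances the numbers. Sdc1 was not called in PMA arrays only (0.16), nor Gpc5 in control (0.24) or PMA arrays only (0.20). The mean of all probe sets per gene could not differ, since each of the 10 genes had 1. Only 6 of the 10 passed the filter on dim probe sets.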
